A study of Homo sapiens with 12 samples.

Results

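ATM, ATR, CHEK1, CHEK2, TP53BP1, MDC1, RNF8, RNF168, H2AFX and TOPBP1, which encode kinases of the DNA damage response, their activators and the proteins that mark damaged chromatin with ubiquitin, were taken by symbol from the deposited gene counts. The 10 genes are among 26334 rows of the gene table, and all 10 were among the 15352 genes that passed the filter on low counts. The data were 12 RNA sequencing libraries of A549 cells, an established line from a human lung adenocarcinoma, with 3 libraries for each of 4 conditions. All cells received shRNA from a lentivirus and were selected with 1 µg/ml puromycin for 4 days. The shRNA was a non-targeting control (control cells) or was directed against RNF113A, a spliceosome protein (RNF113A-depleted cells), and each kind of cell was left untreated or was exposed to Cisplatin, at 25 µg/ml for 20 h by the labels. Other experiments of the study give the Cisplatin dose in a molar unit, and which unit applies here was not settled. A single shRNA label stands for depletion, and the methods of the study call the 3 replicates biological without saying whether they were separate cultures, so the p-values measure the spread between these libraries.

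ATM and ATR are large kinases that respond to double-strand breaks and to single-stranded DNA at stalled replication forks, respectively. TOPBP1 is an activator of ATR, which acts mainly through the kinase CHK1 (CHEK1), whereas ATM acts through CHK2 (CHEK2). At breaks, phosphorylated H2AX is bound by MDC1, which recruits the ubiquitin ligase RNF8, then RNF168, whose mark on H2A is read by 53BP1 (TP53BP1). Cisplatin, a platinum compound, crosslinks DNA bases and blocks replication forks.

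RNF113A itself, on chromosome X of hg19, was examined first. It had 20.3, 19.5 and 19.8 CPM (counts-per-million units, scaled with TMM factors) in untreated control cells and 15.3, 15.8 and 16.8 CPM in untreated depleted cells. After Cisplatin the 3 control libraries had 31.5, 28.9 and 27.7 CPM and the depleted ones 25.8, 24.3 and 29.9 CPM. The untreated groups did not overlap and the Cisplatin-treated groups did. The log2 fold change upon depletion was −0.31 ± 0.09 (SE) in untreated cells (adjusted p = 0.0247, edgeR) and −0.14 ± 0.09 after Cisplatin (adjusted p = 0.233), so that RNF113A transcripts were only partly lowered, and in Cisplatin-treated cells a lowering was not detected at the RNA level. The call in untreated cells was lost in 4 of the 12 cases of leaving out a library (adjusted p = 0.0563 to 0.0940). The keratins KRT8 and KRT18 were abundant in all libraries, with at least 1936 and 1402 CPM, while EPCAM ranged from 3.66 to 97.6 CPM. The leukocyte, endothelial and fibroblast genes PTPRC, CD3E, PECAM1, VWF, COL3A1 and DCN stayed under 1 CPM, CD14 reached 4.36 CPM and COL1A1 34.9 CPM, and CDKN2A, a gene deleted in A549 cells, had no count. Libraries held 33859097 to 56071514 read pairs, of which 26220526 to 45721152 were assigned to genes on their own strand. Depth went with condition. The Cisplatin-treated depleted libraries had the fewest assigned read pairs, 26220526 to 30806147, and the largest unassigned share, 21.8% to 22.6%.

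Averaged over both backgrounds, CHEK1, H2AFX and TOPBP1 transcripts fell upon Cisplatin, and those of RNF8, RNF168 and ATR rose by less. Thus 6 of the 10 genes passed an adjusted p-value under 0.05 in edgeR's quasi-likelihood test, while 66.8% of all tested genes did. The median log2 fold change was 0.08 for the 10 genes and 0.03 for all tested genes. Depletion over both treatments changed 2 genes, a rise of MDC1 and a fall of TOPBP1, beside 47.5% of all tested genes. In single conditions, 4 of 10 genes passed upon Cisplatin in control cells (55% of all tested genes) and 4 of 10 upon Cisplatin in depleted cells (60.2%). Only CHEK1 and TOPBP1 passed in each background. Depletion changed 1 of 10 genes in untreated cells (27.4% of all tested genes) and 3 of 10 in Cisplatin-treated cells (42.9%). With the library size in place of TMM, which moved the median of all tested genes upon Cisplatin from 0.03 to 0.13, 5 genes rose and 3 fell over both backgrounds, with MDC1 and TP53BP1 as further rises, and in control cells 3 rose and 3 fell in place of 1 and 3. Upon depletion in Cisplatin-treated cells 3 rose and 1 fell with the library size and 2 rose and 1 fell with DESeq2 size factors, in place of 3 and 0. None of the 10 genes changed 2-fold or more with an adjusted p-value under 0.05 in any of these comparisons. The response to Cisplatin differed between the backgrounds for none of the 10 genes at this threshold, beside 4.25% of all tested genes, although 3 of them (RNF8, H2AFX and ATR) had an unadjusted p-value under 0.05 in edgeR. With DESeq2 the count for this interaction was also 0, with 3 genes at an unadjusted p-value under 0.05. The share of all tested genes under this unadjusted limit was not worked out. In these bulk samples, fewer cells of a kind and less RNA per cell cannot be told apart. Comparisons within single conditions share libraries with each other, and their values are given side by side only.

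**Figure D1:**
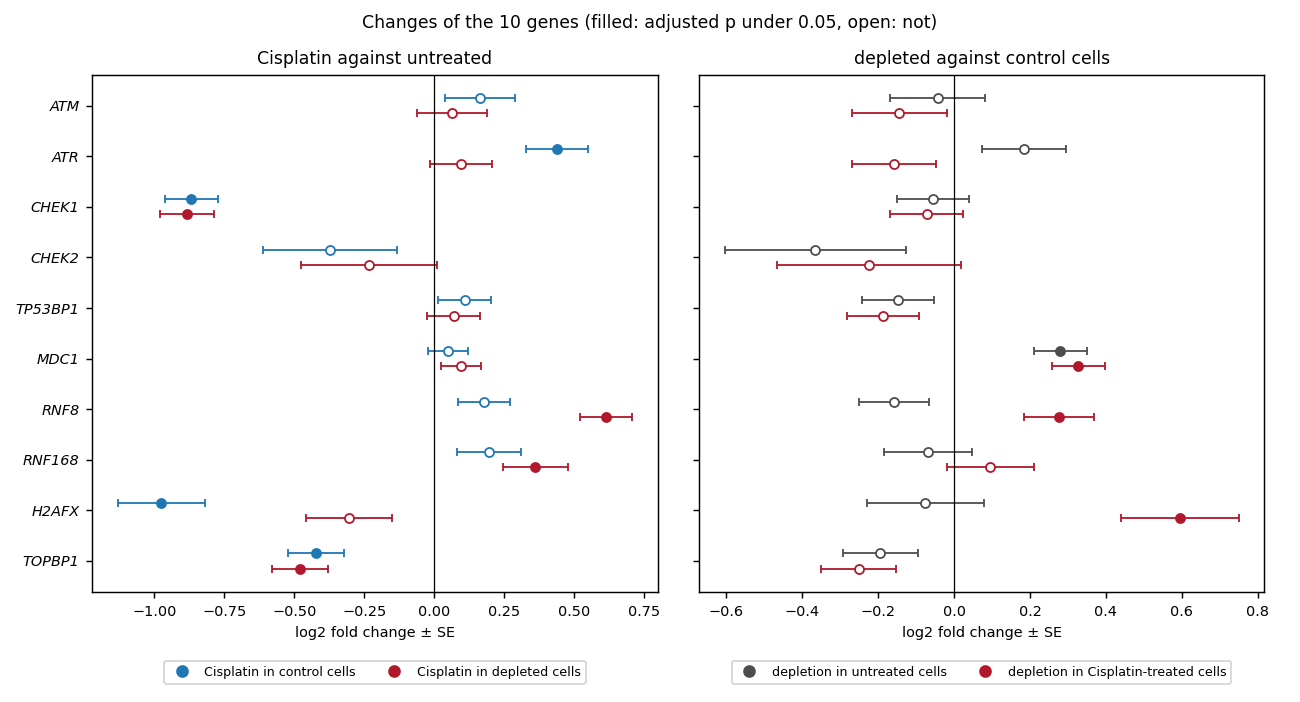
Log2 fold changes (x axis, error bars are SE) of the 10 genes (y axis) upon Cisplatin in control and depleted cells (left) and upon depletion in untreated and Cisplatin-treated cells (right). Filled points passed an adjusted p-value under 0.05 and open points did not. CHEK1 lies near −0.9 in both backgrounds, H2AFX at −0.97 and −0.30, and MDC1 at 0.28 and 0.33 upon depletion.

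Levels between genes were compared as CPM per kb of merged exons. In untreated control cells H2AFX was the highest with 62.8 ± 11.8 CPM per kb (SD, n = 3), followed by TOPBP1 with 25.6 ± 3.9, CHEK1 with 15.0 ± 0.68, CHEK2 with 11.3 ± 3.7 and TP53BP1 with 10.7 ± 1.3. RNF8, MDC1, ATR, RNF168 and ATM lay lower, with 4.78, 4.66, 4.30, 3.15 and 2.89 CPM per kb, respectively. The libraries of H2AFX did not overlap with those of TOPBP1, nor those of TOPBP1 with CHEK1 or those of TP53BP1 with RNF8. CHEK1, CHEK2 and TP53BP1 overlapped with their neighbours in this order, and the 5 lowest genes each overlapped with their neighbour. H2AFX and TOPBP1 stayed the 2 highest and ATM the lowest in all 4 conditions. After Cisplatin TP53BP1 ranked above CHEK1, at 11.5 ± 0.50 against 8.22 ± 0.84 CPM per kb in control cells and 10.1 ± 0.52 against 7.82 ± 0.18 in depleted cells.

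**Figure D2:**
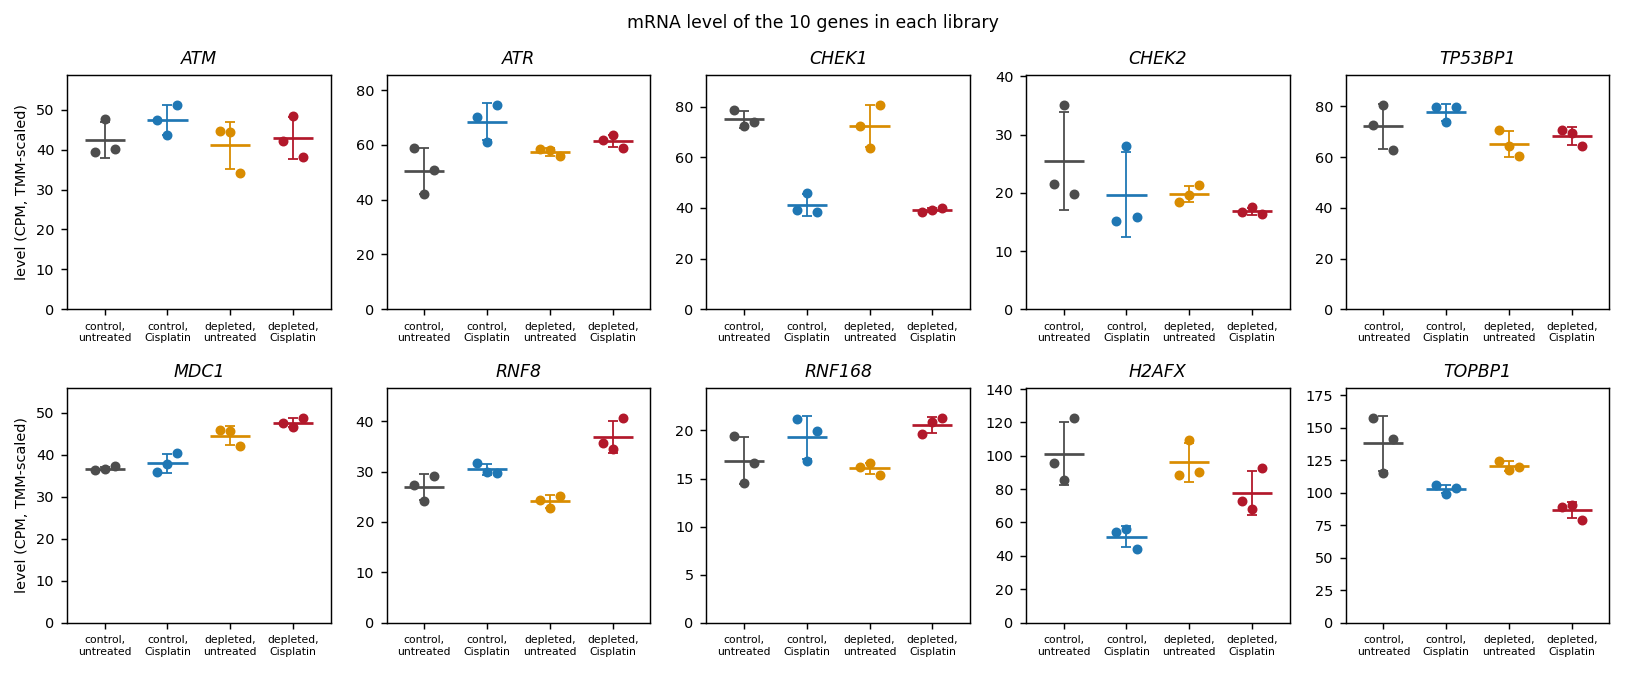
CPM (y axis) of the 10 genes in the 12 libraries, by condition (x axis). Points are libraries, lines are means and error bars SD (n = 3). The Cisplatin-treated libraries of CHEK1 and TOPBP1 lie below the untreated ones in both backgrounds, those of H2AFX do so in control cells, and 1 library of each control group stands high for CHEK2.

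ATM lies on chromosome 11 of hg19 (108093211 to 108239829, plus strand) and overlaps NPAT and C11orf65 on the other strand. It had 39.4, 47.6 and 40.2 CPM in untreated control cells, 47.5, 43.8 and 51.2 CPM in Cisplatin-treated control cells, and in depleted cells 44.7, 44.4 and 34.3 CPM without and 42.3, 48.5 and 38.1 CPM with Cisplatin. These groups overlapped in every comparison. The log2 fold change of ATM upon Cisplatin over both backgrounds was 0.11 ± 0.09 (SE, adjusted p = 0.269).

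ATR (chromosome 3, 142168077 to 142297668, minus strand) had 59.0, 42.2 and 50.8 CPM in untreated and 70.0, 61.1 and 74.5 CPM in Cisplatin-treated control cells. Its depleted libraries had 58.6, 58.1 and 55.9 CPM without and 61.8, 63.6 and 59.0 CPM with Cisplatin. Every Cisplatin-treated library was above the untreated ones of its background, but the groups were close in depleted cells. ATR rose upon Cisplatin in control cells, with a log2 fold change of 0.44 ± 0.11 (adjusted p = 0.00500, edgeR). In depleted cells the value was 0.09 ± 0.11 (adjusted p = 0.478), and the difference between the backgrounds, −0.34 ± 0.16, did not pass the test (adjusted p = 0.229). The rise over both backgrounds (0.27 ± 0.09, adjusted p = 0.0185) was no longer called without Cisplatin-treated control replicate 1 (adjusted p = 0.0578) or replicate 3 (adjusted p = 0.0645).

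TOPBP1, an activator of ATR, lies on chromosome 3 (133317019 to 133380737, minus strand). In control cells it had 157, 115 and 141 CPM without and 106, 99.1 and 104 CPM with Cisplatin. The depleted cells had 124, 118 and 119.6 CPM without and 89.4, 90.4 and 79.3 CPM with Cisplatin. All treated libraries were below all untreated libraries of the same background. TOPBP1 fell upon Cisplatin by a log2 fold change of −0.42 ± 0.10 in control cells (adjusted p = 0.00314) and −0.48 ± 0.10 in depleted cells (adjusted p = 0.00120). It was also lower upon depletion over both treatments (−0.22 ± 0.07, adjusted p = 0.0189). In Cisplatin-treated cells alone the depleted libraries were all below the control libraries, and the value of −0.25 ± 0.10 had an adjusted p of 0.0593 in edgeR and of 0.0248 in DESeq2. With the replicate number as a block this value passed as well (adjusted p = 0.0451).

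CHEK1, the kinase downstream of ATR, lies on chromosome 11 (125495036 to 125546150, plus strand), where it overlaps STT3A on its own strand and ACRV1 on the other. In control cells it had 78.9, 72.4 and 74.0 CPM without and 39.2, 46.0 and 38.3 CPM with Cisplatin. In depleted cells it had 72.4, 63.9 and 80.6 CPM without and 38.3, 39.0 and 40.2 CPM with Cisplatin. Treated and untreated libraries were far apart, and control and depleted libraries overlapped. CHEK1 fell by log2 fold changes of −0.87 ± 0.10 in control cells (adjusted p = 1.01e-05) and −0.88 ± 0.10 in depleted cells (adjusted p = 7.63e-06). The difference between the backgrounds was −0.02 ± 0.14 (adjusted p = 0.962), and upon depletion CHEK1 had log2 fold changes of −0.05 ± 0.09 in untreated and −0.07 ± 0.10 in treated cells, with adjusted p-values of 0.703 and 0.570. Genes used in S phase and mitosis moved with Cisplatin too. Of 12 S phase genes 10 fell and 1 rose, with a median log2 fold change of −0.83, and 9 of 10 mitosis genes fell, with a median of −0.70. Of all tested genes 66.8% were called as rises or falls, with a median of 0.03. Their part in the falls of CHEK1, TOPBP1 and H2AFX was not tested.

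A pair of exons of CHEK1 had the smallest adjusted p-values of all splicing events in the 10 genes and are therefore shown. The first, of 224 nt, is at chr11:125497502-125497725 on the plus strand and is exon 3 of 14 in the annotated transcript examined. The second, of 96 nt, is at chr11:125507344-125507439 and is exon 7 of 12 in another transcript. Capitals mark the exon and lower case letters the 20 intronic bases on either side, from the GRCh37 genome, 5′ to 3′.
CHEK1 exon of 224 nt: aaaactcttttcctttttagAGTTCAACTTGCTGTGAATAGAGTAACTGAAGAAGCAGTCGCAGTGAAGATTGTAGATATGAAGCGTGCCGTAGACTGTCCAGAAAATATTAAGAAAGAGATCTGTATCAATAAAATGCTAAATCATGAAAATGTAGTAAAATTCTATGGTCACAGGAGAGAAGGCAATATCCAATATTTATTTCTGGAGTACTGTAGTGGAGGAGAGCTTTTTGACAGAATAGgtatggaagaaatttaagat
CHEK1 exon of 96 nt: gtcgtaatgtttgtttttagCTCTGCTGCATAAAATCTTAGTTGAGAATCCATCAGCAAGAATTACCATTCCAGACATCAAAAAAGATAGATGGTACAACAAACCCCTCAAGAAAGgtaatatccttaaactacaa
Both exons are flanked by AG before and GT after, the usual bases of introns. A length of 224 nt is not a multiple of 3. In the transcript examined, leaving that exon out moved the reading frame and gave a stop codon in exon 4, after 28 codons in place of 476. Leaving out the 96 nt exon kept the frame, with 460 in place of 492 codons.

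Inclusion of the 224 nt exon was lower in depleted cells. The inclusion level is the share of transcripts with the exon, from inclusion and skipping reads divided by the effective length of each form. It was 89.4%, 91.1% and 85.6% in the 3 Cisplatin-treated control libraries and 70.6%, 71.3% and 69.1% in the Cisplatin-treated depleted ones, so that the groups were far apart. The means were 88.7% ± 2.8 and 70.3% ± 1.1 (SD, n = 3), a difference of −18.4 points (adjusted p = 0.0178, edgeR). This rests on 10 to 19 skipping reads per control library and 28 to 30 per depleted library. Without Cisplatin the levels were 76.3%, 81.3% and 82.0% in control and 71.2%, 64.8% and 67.4% in depleted cells. These groups did not overlap either, but the difference of −12.1 points did not pass the test (adjusted p = 0.699). Upon Cisplatin in control cells the level was 8.82 points higher and in depleted cells 2.54 points higher (adjusted p = 0.712 and 0.786). When each of the 6 Cisplatin-treated libraries was left out, the difference stayed between −19.9 and −17.2 points and its adjusted p-value was 0.0910 to 0.249, above the threshold each time.

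The 96 nt exon of CHEK1 was included at 99.6% ± 0.34 in untreated and 93.2% ± 4.9 in Cisplatin-treated depleted cells, a difference of −6.43 points (adjusted p = 0.0146). It rested on 0 to 1 skipping reads per untreated library and 2 to 8 per treated library. In control cells the levels were 99.2% ± 0.92 and 99.2% ± 0.69, respectively. Leaving out 1 of the 6 depleted libraries at a time kept the adjusted p-value under 0.05 in 1 of 6 cases. Upon depletion in Cisplatin-treated cells the difference for this exon was −6.06 points (adjusted p = 0.231).

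**Figure D3:**
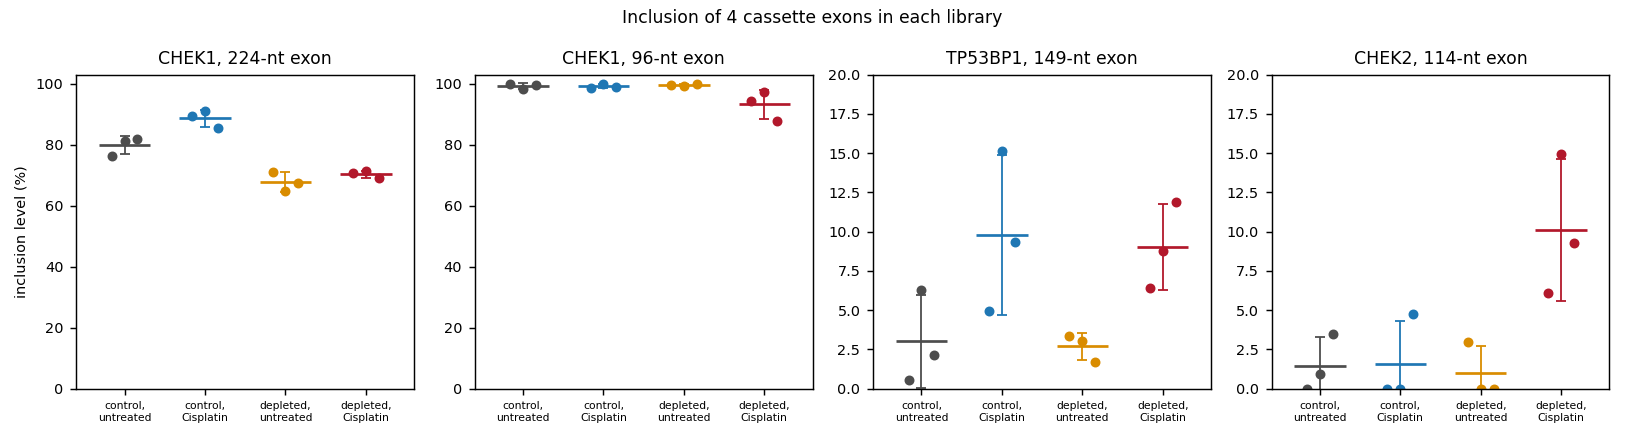
Inclusion level in percent (y axis) of splicing events in the 10 genes by condition (x axis). Points are libraries, lines are means and error bars SD (n = 3). The 224 nt exon of CHEK1 lies at 69.1% to 71.3% in Cisplatin-treated depleted cells and at 85.6% to 91.1% in Cisplatin-treated control cells.

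CHEK2, the kinase downstream of ATM, lies on chromosome 22 (29083731 to 29138410, minus strand), overlaps HSCB on the other strand and has near-identical pseudogene copies, so its counts are uncertain. In control cells it had 21.5, 35.1 and 19.9 CPM without and 15.2, 28.0 and 15.8 CPM with Cisplatin. In depleted cells it had 18.4, 19.6 and 21.3 CPM without and 16.6, 17.5 and 16.3 CPM with Cisplatin. Replicate 2 was the high library of both control groups, and the depleted groups were narrow and did not overlap. CHEK2 had a log2 fold change of −0.30 ± 0.17 upon Cisplatin over both backgrounds (adjusted p = 0.119), which passed the test only in some settings. Without Cisplatin-treated control replicate 2 it was −0.47 (adjusted p = 0.0118), and with the replicate number as a block −0.31 (adjusted p = 0.0443). Control cells compared as 3 pairs by replicate number, an analysis added once the data were known, gave −0.38 (adjusted p = 0.00457).

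H2AFX, which encodes the histone variant H2AX, is a gene of 1 exon on chromosome 11 (118964564 to 118966177, minus strand). In control cells it had 95.8, 85.6 and 122 CPM without and 54.5, 55.9 and 44.3 CPM with Cisplatin. In depleted cells it had 88.5, 109 and 90.4 CPM without and 72.7, 68.0 and 93.0 CPM with Cisplatin. The drop separated the control groups, whereas the depleted groups overlapped. H2AFX fell upon Cisplatin in control cells by a log2 fold change of −0.97 ± 0.16 (adjusted p = 0.000196), or 0.509-fold, and had −0.30 ± 0.15 in depleted cells (adjusted p = 0.107). In Cisplatin-treated cells it was higher upon depletion by 0.59 ± 0.15 (adjusted p = 0.00893), with no overlap between the groups. The difference between both responses, 0.67 ± 0.22, did not pass the test (adjusted p = 0.102) but did so without untreated control replicate 2 (0.78, adjusted p = 0.0361). Without Cisplatin-treated control replicate 3 the higher level upon depletion was 0.44 (adjusted p = 0.0601). The libraries were made from poly(A) RNA and do not capture the form of the H2AFX transcript that lacks a poly(A) tail.

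MDC1, the reader of phosphorylated H2AX, lies on chromosome 6 (30667584 to 30685666, minus strand). It had 36.3, 36.6 and 37.2 CPM in untreated control cells and 45.9, 45.7 and 42.0 CPM in untreated depleted cells. After Cisplatin it had 35.8, 37.7 and 40.3 CPM in control and 47.6, 46.6 and 48.6 CPM in depleted cells. All 6 depleted libraries were above all 6 control libraries. MDC1 rose upon depletion by 0.28 ± 0.07 in untreated cells (adjusted p = 0.0114) and 0.33 ± 0.07 in Cisplatin-treated cells (adjusted p = 0.00297). Upon Cisplatin over both backgrounds its log2 fold change was 0.07 ± 0.05 (adjusted p = 0.237).

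RNF8, the ligase recruited by MDC1, lies on chromosome 6 (37321748 to 37362514, plus strand). In control cells it had 27.4, 24.2 and 29.2 CPM without and 31.7, 29.8 and 29.8 CPM with Cisplatin. In depleted cells it had 24.4, 22.7 and 25.2 CPM without and 35.6, 34.4 and 40.6 CPM with Cisplatin. The treated libraries were above the untreated ones in both backgrounds, with the wider gap in depleted cells. RNF8 rose upon Cisplatin in depleted cells by 0.61 ± 0.09 (adjusted p = 0.000110), or 1.53-fold, and had 0.18 ± 0.09 in control cells (adjusted p = 0.122). The difference between the backgrounds was 0.44 ± 0.13 (adjusted p = 0.0804), and without untreated control replicate 2 it was 0.51 (adjusted p = 0.0257). In Cisplatin-treated cells RNF8 was higher upon depletion by 0.28 ± 0.09 (adjusted p = 0.0290), a call that was lost when any 1 of the 6 treated libraries was left out (adjusted p = 0.0553 to 0.150).

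RNF168, which extends the ubiquitin mark begun by RNF8, lies on chromosome 3 (196195654 to 196230639, minus strand) and had the lowest mean level of the 10 genes in CPM. It had 19.4, 14.5 and 16.6 CPM in untreated and 21.2, 16.8 and 19.9 CPM in Cisplatin-treated control cells. In depleted cells it had 16.2, 16.6 and 15.4 CPM without and 19.7, 20.9 and 21.3 CPM with Cisplatin. The control groups overlapped, with replicate 2 the lowest in both, and the depleted groups did not overlap. RNF168 rose upon Cisplatin in depleted cells by 0.36 ± 0.12 (adjusted p = 0.0174), and had 0.19 ± 0.12 in control cells (adjusted p = 0.171). The rise in depleted cells was no longer called without untreated depleted replicate 3 or Cisplatin-treated depleted replicate 2 or 3 (adjusted p = 0.0531 to 0.0638).

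TP53BP1, which encodes the reader of the RNF168 mark, lies on chromosome 15 (43699407 to 43802926, minus strand). It had 72.8, 80.5 and 63.0 CPM in untreated and 79.7, 73.8 and 79.7 CPM in Cisplatin-treated control cells. In depleted cells it had 70.6, 64.4 and 60.2 CPM without and 70.9, 69.6 and 64.3 CPM with Cisplatin. Only the Cisplatin-treated groups did not overlap, where all depleted libraries were below the control ones. Upon depletion over both treatments TP53BP1 had a log2 fold change of −0.17 ± 0.07 (adjusted p = 0.0533), which passed with DESeq2 (adjusted p = 0.0199) and with the replicate number as a block (adjusted p = 0.0441).

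Gene span moved with the response to Cisplatin across the 13417 of 15352 tested genes whose symbol occurs once in the annotation used. The other 1935 were left out of this description. Genes were sorted into 5 groups of equal size by the length from first to last annotated base. The median log2 fold change over both backgrounds was 0.22 in the shortest group and −0.69 in the longest group, of at least 100.251 kb, in which 68.3% of genes fell and 11.5% rose. ATM (146.6 kb), ATR (129.6 kb) and TP53BP1 (103.5 kb) belong to the longest group. None of the 3 fell, and ATR rose. Among the 1122 of these genes that span 100 to 150 kb, 54.4% fell and 17.6% rose, with a median of −0.33. H2AFX, one of the shortest genes with 1.614 kb, fell, as did CHEK1 with 51.1 kb and TOPBP1 with 63.7 kb, while the groups that hold these genes had medians of 0.22 and −0.07, respectively.

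**Figure D4:**
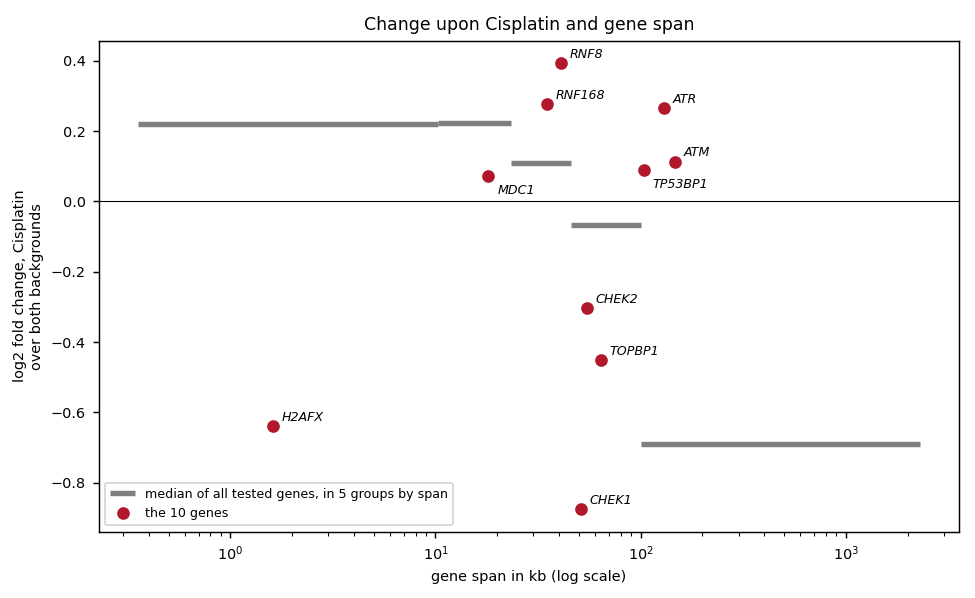
Log2 fold change upon Cisplatin over both backgrounds (y axis) against gene span in kb (x axis, log scale). Points are the 10 genes and grey bars the medians of the 5 groups of the 13417 tested genes with a known span, from 0.22 in the shortest to −0.69 in the longest. ATM, ATR and TP53BP1 lie above the bar of the longest group and CHEK1 and H2AFX below the bars of theirs.

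Intronic reads of the 10 genes, taken as reads on the whole gene minus reads on its exons, were higher relative to exonic reads in depleted cells, as they were for most genes. Over all genes a library had 4.55 to 5.07 intronic reads per 100 exonic reads in untreated control cells, 4.87 to 7.71 in Cisplatin-treated control cells, and in depleted cells 6.10 to 7.10 without and 11.0 to 11.5 with Cisplatin. The value of 7.71 belongs to replicate 3. H2AFX has no intron, and the other 9 genes were tested. Upon depletion in Cisplatin-treated cells the intronic to exonic ratio rose in all 9 genes, beside 88.3% of the 9557 genes tested. The control and depleted libraries of the 9 genes did not overlap here, and the share of all tested genes without overlap was not worked out. The median log2 change was 0.87 for the 9 genes and 0.96 for all tested genes. When intronic and exonic reads were each scaled with TMM, so that a gene was set against most genes, none of the 9 passed in edgeR in this comparison, and 0 had an unadjusted p-value under 0.05. Of the 9557 genes tested, 1450 passed with a higher and 1423 with a lower value under this scaling.

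CHEK2 had the highest ratio of the 9 genes in every condition. It had 19.6, 13.0 and 22.0 intronic reads per 100 exonic reads in untreated control cells and 42.3, 41.7 and 28.8 in untreated depleted cells. After Cisplatin it had 32.4, 21.1 and 54.9 in control and 79.9, 82.7 and 78.5 in depleted cells. The treated depleted libraries stood above all others. The log2 change upon depletion was 1.07 ± 0.27 in untreated (adjusted p = 0.0107) and 1.26 ± 0.27 in treated cells (adjusted p = 0.000334). The strand setting of these intronic counts is not given in the sources used here, so that reads of HSCB and of pseudogene copies may be among them.

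RNF8 had 8.30, 4.71 and 6.85 intronic reads per 100 exonic reads in untreated control cells and 12.4, 17.9 and 10.1 in untreated depleted cells. After Cisplatin it had 8.47, 6.09 and 13.7 in control and 21.5, 19.3 and 22.1 in depleted cells. Depleted libraries were above control libraries without Cisplatin, by a log2 change of 1.01 ± 0.28 (adjusted p = 0.0144), and with Cisplatin, by 1.19 ± 0.26 (adjusted p = 0.000371). In untreated cells MDC1 was the third gene to pass, with 1.62 ± 0.32 and 2.81 ± 0.65 intronic reads per 100 exonic reads, from 19 to 59 intronic reads per library (0.78 ± 0.26, adjusted p = 0.0302). These 3 of 9 genes stood beside 34.5% of all tested genes. Each of the calls for CHEK2, RNF8 and MDC1 was lost without 1 of the untreated libraries, such as untreated control replicate 2 (adjusted p = 0.0624, 0.0734 and 0.0524).

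ATR had 8.37, 7.31 and 11.4 intronic reads per 100 exonic reads in Cisplatin-treated control cells and 15.7, 19.5 and 19.5 in Cisplatin-treated depleted cells. Without Cisplatin it had 7.79, 12.02 and 10.3 in control and 11.9, 12.7 and 11.3 in depleted cells. The treated depleted libraries were above the rest. The log2 change of ATR upon depletion in treated cells was 1.02 ± 0.20 (adjusted p = 0.000155). For ATM the groups after Cisplatin were 7.66, 8.50 and 10.3 in control and 15.1, 15.8 and 20.7 in depleted cells, with a log2 change of 0.95 ± 0.22 (adjusted p = 0.000613). RNF168, CHEK1, TP53BP1 and TOPBP1 had log2 changes of 0.87, 0.78, 0.71 and 0.70 in this comparison, and MDC1 of 0.85. In CHEK1 the ratio stayed low, with 2.77, 2.69 and 5.25 intronic reads per 100 exonic reads in treated control and 5.99, 5.29 and 6.77 in treated depleted cells, the 2 nearest libraries being replicate 3 of the former and replicate 2 of the latter.

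Upon Cisplatin the ratio rose in depleted cells for 4 of 9 genes (CHEK2, ATM, RNF8 and ATR), with log2 changes of 1.11, 0.96, 0.66 and 0.60, beside 70.3% of all tested genes. The median change of all tested genes was 0.74. With intronic and exonic reads each scaled with TMM, none of these 4 genes was called, at 0.32 for CHEK2, 0.16 for ATM, −0.14 for RNF8 and −0.20 for ATR, while RNF168, TOPBP1 and TP53BP1 passed with negative values. Of the 9557 genes tested, 2066 rose and 2414 fell under this scaling. In control cells only CHEK2 passed (0.93 ± 0.28, adjusted p = 0.0214), beside 19.8% of all tested genes, and this call was lost without untreated control replicate 2 or without Cisplatin-treated control replicate 1 or 3 (adjusted p = 0.0558 to 0.128). The change upon Cisplatin differed between the backgrounds for 0 of 9 genes in edgeR, beside 3.85% of all tested genes, and 1 gene, ATR, had an unadjusted p-value under 0.05 (0.74 ± 0.29, adjusted p = 0.108). Without Cisplatin-treated control replicate 3, whose intronic share was the highest of the control cells, ATR (0.93, adjusted p = 0.00502) and CHEK1 (0.69, adjusted p = 0.0309) passed. In that setting 5232 of the 9561 genes tested passed with a higher value and 6 with a lower value.

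**Figure D5:**
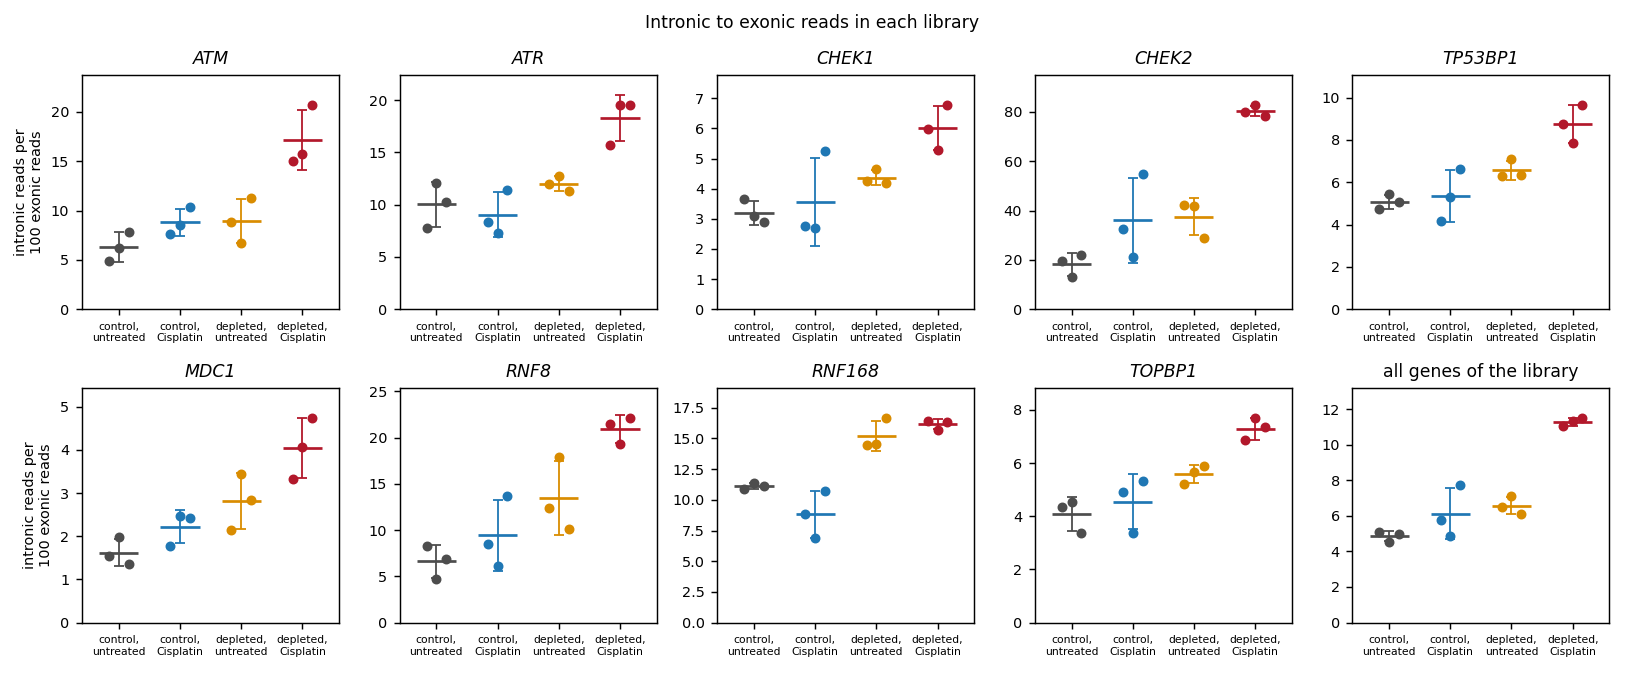
Intronic reads per 100 exonic reads (y axis) by condition (x axis) for the 9 genes with introns and for all genes of a library. Points are libraries, lines are means and error bars SD (n = 3). In each of the 9 genes all Cisplatin-treated depleted libraries lie above all Cisplatin-treated control libraries. The totals over the genes of a library do so too, at 11.0 to 11.5 against 4.87 to 7.71.

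The splicing tables held 178 events in 9 of the 10 genes, all but H2AFX. With at least 10 reads in every library, 105 events were tested upon Cisplatin in control cells, 114 upon Cisplatin in depleted cells, 88 upon depletion in untreated cells and 122 upon depletion in Cisplatin-treated cells. With a limit of 0.05 on the adjusted p-value and of 20 points on the difference, 0 events of these genes were called in edgeR, beside 0.0681%, 0.281%, 0.058% and 0.172% of all tested events, respectively. By the adjusted p-value alone, the 224 nt and the 96 nt exon of CHEK1 passed in 1 comparison each, described above, and no other event did, beside 0.53%, 2.6%, 0.905% and 2.33% of all tested events. An unadjusted p-value under 0.05 was found for 8, 9, 3 and 7 events. The share of all tested events under this limit was not worked out, so these counts are not read as changes. The authors' own rMATS test of these events was not used, and only edgeR was run here.

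Among the events that did not pass, an exon of 149 nt in TP53BP1 (chr15:43738964-43739112) was included at 3.00% ± 3.0 in untreated and 9.79% ± 5.1 in Cisplatin-treated control cells (adjusted p = 0.323). In depleted cells its levels were 2.68% ± 0.88 and 9.03% ± 2.7 (adjusted p = 0.273), with no overlap, from 8 to 13 inclusion reads per treated library. An overlapping exon of 145 nt (chr15:43738964-43739108) was at 2.08% ± 1.8 in untreated and 7.31% ± 3.5 in treated control cells (adjusted p = 0.430). An exon of 114 nt in CHEK2 (chr22:29117506-29117619) was at 0.988% ± 1.7 in untreated and 10.1% ± 4.5 in treated depleted cells (adjusted p = 0.114), from at most 5 inclusion reads per library. A pair of mutually exclusive exons in ATR had an inclusion level of the first of 53.8% ± 1.7 in treated control and 42.6% ± 10.5 in treated depleted cells (adjusted p = 0.186). An alternative 3′ splice site of TOPBP1 was used at 74.0% ± 2.6 in untreated control and 83.6% ± 4.3 in untreated depleted cells (adjusted p = 0.516). An alternative 5′ splice site of TP53BP1 lay between 93.1% and 100% in all libraries.

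Other genes of DNA damage signaling were described by lists of 56 genes in all, each of which passed the filter on low counts. Upon Cisplatin over both backgrounds 13 rose, 24 fell and 19 did not pass, beside 66.8% of all tested genes called, with a median log2 fold change of −0.17 beside 0.03 for all tested genes. Of the 12 genes for ubiquitin signaling on chromatin 6 rose and 5 fell (median 0.21), of the 13 for ATR activation 2 rose and 5 fell (median −0.18), and of the 8 for ATM and DNA-PK activation 1 rose and 4 fell (median −0.21). In the BRCA1-A complex, which binds ubiquitin at breaks, 1 of 7 genes rose and 5 fell (median −0.49), and of 7 effectors of 53BP1 1 rose and 2 fell (median 0.04). Of 6 checkpoint targets and phosphatases 1 rose and 3 fell (median −0.26), and of 3 chaperones of the large kinases 1 rose (median 0.08).

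The rises upon Cisplatin were led by PPM1D, a phosphatase that reverses damage signals, with a log2 fold change of 2.37 ± 0.17. ATRIP, the partner of ATR, rose by 1.12 ± 0.08, and RNF169, which binds the RNF168 mark, by 0.74 ± 0.11. The falls were led by BRE, a BRCA1-A subunit whose gene spans 449 kb, with −2.75 ± 0.10. C20orf196, a shieldin subunit that acts with 53BP1 and spans 113.5 kb, fell by 1.30 on the log2 scale, and CDC25B, a phosphatase that promotes mitosis, by 1.22. All 6 adjusted p-values were at most 6.38e-05.

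Depletion over both treatments raised 5 and lowered 17 of the 56 genes, beside 47.5% of all tested genes called (median −0.05 beside −0.0018 for all tested genes). In untreated cells 0 rose and 7 fell (27.4% of all tested genes called), and in Cisplatin-treated cells 9 rose and 15 fell (42.9%). TELO2, a chaperone of ATM and ATR, rose by 0.54 ± 0.13, the phosphatase CDC25A by 0.47 ± 0.13 and RAD9A, of the clamp that brings TOPBP1 to ATR, by 0.29 ± 0.09. BARD1, the partner of BRCA1, fell by 0.83 on the log2 scale, and both RIF1, an effector of 53BP1, and BRE by 0.51. The largest adjusted p-value among these 6 was 0.0174. Control and depleted libraries of TELO2, CDC25A, RAD9A and BARD1 overlapped in untreated cells and did not overlap in Cisplatin-treated cells. These genes were picked for large called changes in the same libraries, so the separation is no further result. The share of all tested genes without overlap was not worked out. In untreated cells alone TELO2, CDC25A and RAD9A did not pass (adjusted p = 0.177, 0.400 and 0.434). The response to Cisplatin differed between the backgrounds for 2 of the 56 genes, ATMIN and PPM1D, beside 4.25% of all tested genes.

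For each of the 10 genes, the gene with the most similar pattern was the one with the smallest root mean square difference of centred log2 CPM over the 12 libraries, among 9769 genes of at least 10 CPM on average. TOPBP1 was nearest to BAZ1B (0.043), TP53BP1 to KIAA0355 (0.058), RNF168 to CIAO1 (0.058), ATR to EIF3A (0.061) and MDC1 to SHARPIN (0.062). RNF8 was nearest to HNRNPA1L2 (0.073), CHEK1 to RFC4 (0.087), CHEK2 to CREM (0.094) and ATM to ZSWIM6 (0.10). H2AFX had the largest distance to its nearest gene, CCNF (0.14).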

How the data were processed

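Libraries of poly(A) RNA (TruSeq stranded) from the 12 A549 samples were sequenced in paired ends. Reads from rRNA, tRNA and the mitochondrial genome were discarded by the authors, who cut the others to 73 nt and used STAR 2.5.2b with hg19. The gene counts that the authors deposited are raw numbers of read pairs. Intronic and exonic counts, also raw, came from HTSeq (intersection-strict, protein-coding Gencode v19 genes) and raw reads of splicing events from rMATS, run by the authors. Their columns of p-values, FDR and inclusion differences were not used, nor was the merged transcript annotation. The order of the 3 libraries in the splicing tables is not named.

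Counts on the gene's strand were tested in edgeR 4.0.16 (R 4.3.3) with TMM, filterByExpr, quasi-likelihood F-tests and Benjamini-Hochberg adjustment over all tested genes. Cisplatin and depletion came from the additive model, the interaction and single conditions from the model with their product. Intronic against exonic reads (at least 10 of each in every library) and inclusion against skipping reads (at least 10 in every library, adjusted within each category of event) were tested with a term for each library. Called means an adjusted p-value under 0.05 and, for events, also levels at least 20 points apart. DESeq2 was version 1.42.0. Log2 fold changes are given ± SE.

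On simulated data with 200 changed genes of an absolute log2 change of 1, 156 were called for Cisplatin (15100 genes), 166 for depletion (15086 genes) and 95 for the interaction (15098 genes). For ratios upon depletion in Cisplatin-treated cells 120 of 200 were called (9509 genes). For retained introns in that comparison 146 of 200 (2715 introns) passed by adjusted p-value alone. Their change was set on another scale, and introns with few reads were left out. This count therefore does not carry over to the events tested above. False calls numbered 9, 9 and 4 for expression, 6 for ratios and 4 for retained introns.

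The members, lists and tests were chosen with earlier results of these data known. The text names the 10 genes, RNF113A, the 3 largest called rises and falls of the listed signaling genes for Cisplatin and for depletion, up to 2 of each sign for the interaction, the nearest gene of each member, and the events called or with the 3 smallest adjusted p-values per comparison. For libraries with the same replicate number, deviations from the condition mean were compared across 9779 genes. In control cells r was 0.63, 0.73 and 0.48 (untreated against treated), and an analysis of these cells as 3 pairs was added once these values were known. The pairing has no other source. In depleted cells r was 0.41, −0.065 and 0.30. Genes are not independent replicates.

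Gene positions come from the annotation of hg19, and exon sequences and frames from GRCh37 with Gencode. Alternatives were library size or DESeq2 size factors in place of TMM, DESeq2 in place of edgeR, unstranded counts, other filters and limits, a replicate block and the omission of each library. Figures were drawn with matplotlib 3.10.9.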

Additional observations from a re-analysis of the deposited data

Results flagged for a closer look

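The response to Cisplatin differed between control and depleted cells for 2 of the 56 other DNA damage signaling genes, by the interaction term of edgeR's quasi-likelihood test, beside 4.25% of all tested genes. PPM1D, the phosphatase, had 21.9, 20.5 and 21.9 CPM in untreated and 127, 194 and 139.7 CPM in Cisplatin-treated control cells. In depleted cells PPM1D had 22.9, 22.4 and 21.4 CPM without and 84.3, 87.8 and 75.03 CPM with Cisplatin. The treated depleted libraries were all below the treated control libraries, and the difference between the responses of PPM1D was −0.96 ± 0.19 on the log2 scale (adjusted p = 0.0189). It was not called without untreated depleted replicate 1 (adjusted p = 0.0580) or Cisplatin-treated depleted replicate 3 (adjusted p = 0.0537).

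ATMIN, a cofactor of ATM, had 122, 136 and 126 CPM in untreated and 154, 149 and 149 CPM in Cisplatin-treated control cells. In depleted cells ATMIN had 127, 117 and 121 CPM without and 189, 178 and 206 CPM with Cisplatin. Here the treated depleted libraries were above the treated control libraries, and the difference between the responses of ATMIN was 0.41 ± 0.10 (adjusted p = 0.0449). This call was kept in 1 of the 12 cases of leaving out a library, that of untreated control replicate 2, and lost in 11 (adjusted p = 0.0516 to 0.126). It was also lost with the library size (adjusted p = 0.0601), DESeq2 size factors (0.0563), no filter on low counts (0.0774), unstranded counts (0.05001) and the replicate block (0.0595), and passed with DESeq2 (adjusted p = 0.00941).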

How the results depend on the processing

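Of the counts of called genes and events, those of expression stayed within 1.5 times the reported count under every scaling, filter, tool, strand and block setting. With intronic and exonic reads each scaled with TMM, 3 genes were called upon Cisplatin in control cells, 1 upon depletion in untreated and 0 upon depletion in treated cells, since this scaling sets each gene against most genes. Of the 9557 genes tested, 1371 rose and 1339 fell in the first of these comparisons. The counts were 500 and 493 in the second and 1450 and 1423 in the third. Called changes that then turned negative were, upon depletion in treated cells, ATM (−0.0026), CHEK1 (−0.18), MDC1 (−0.086), RNF168 (−0.064), TOPBP1 (−0.25) and TP53BP1 (−0.24), and upon Cisplatin in depleted cells ATR (−0.20) and RNF8 (−0.14). RNF168 (−0.70), TOPBP1 (−0.41) and TP53BP1 (−0.39) turned from an uncalled positive to a called negative value upon Cisplatin in depleted cells. With at least 50 reads, which 5 members passed, 1 gene was called upon depletion in untreated and 5 in treated cells. By adjusted p-value alone 1 event was called upon Cisplatin in depleted cells and 1 upon depletion in treated cells, the latter also with levels 10 points apart. Signs differed without any call in 38 values of expression and 27 of ratios.

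Leaving out each library gave 4 to 6 called genes upon Cisplatin in control cells, 3 to 4 in depleted cells and 5 to 7 over both, 1 to 2 upon depletion in untreated cells, 1 to 4 in treated cells and 2 to 4 over both, and 0 to 2 for the interaction. Ratios gave 0 to 3 and 2 to 8 upon Cisplatin in control and depleted cells, 0 to 7 and 9 to 9 upon depletion in untreated and treated cells, and 0 to 2 for the interaction. Splicing events stayed at 0 to 0. Counts moved over 1.5 times without untreated control replicate 2 (interaction 2, depletion in untreated cells 2, ratios upon Cisplatin in control cells and depletion in untreated cells 0) or 3 (depletion over both 4), and without Cisplatin-treated control replicate 1 (ratios upon Cisplatin in control cells 0), 2 (ratios 3, 8 and 7 upon Cisplatin in control and depleted cells and depletion in untreated cells) or 3 (depletion in treated cells 1, the same ratios 0, 8 and 7, and 2 for their interaction). The same held without untreated depleted replicate 2 (ratios upon depletion in untreated cells 0) and treated depleted replicate 3 (ratios upon Cisplatin in depleted cells 2).

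With the replicate block 7 genes were called upon Cisplatin, 3 upon depletion and 0 for the interaction, and 4, 4, 1 and 4 in the single conditions (Cisplatin in control and depleted, depletion in untreated and treated cells). Control cells taken as 3 pairs gave 5. Ratios with the block gave 1, 5, 3, 9 and 0. In control cells untreated replicates 1 and 2 had their highest r with the treated library of their own number, and replicate 3 did not. In depleted cells replicates 1 and 3 did and replicate 2 did not. Whether libraries of the same number are pairs was therefore not settled. No paired analysis was possible for the splicing tables because the order of their libraries is not named. Depth limits events with few reads.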
